A study of Homo sapiens with 6 samples.

Results

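The nuclear genes for subunits of the mitochondrial respiratory chain were followed across 3 human cell lines grown at 2 glucose concentrations. The TET2WT and TET2M lines, described below, are labelled A2058, an established melanoma cell line, and the third is labelled only Mock. Members were chosen by symbol: genes with a probe set annotated to 1 gene whose symbol starts with NDUFA, NDUFB, NDUFC, NDUFS or NDUFV (but not NDUFAF), UQCR, COX4I, COX5, COX6, COX7 or COX8, and SDHA, SDHB, SDHC, SDHD and CYC1. The rule found 64 of the 19775 genes with such a probe set, with 119 probe sets between them. Of the 64, 60 are protein-coding subunits: 33 of complex I, 3 of complex II, 7 of complex III and 17 of complex IV. The other 4 symbols are not subunits: the pseudogene COX6A1P1, the antisense transcripts NDUFB2-AS1 and NDUFV2-AS1, and the divergent transcript NDUFV1-DT. Where a gene had several probe sets the brightest stood for it, and 62 members, 59 of them protein-coding, passed the filter on low values (a mean of at least 2.64 on the log2 scale) among 14428 genes tested. COX8C, with a mean of 1.97, and COX6A1P1, with a mean of 2.61, fell below it, and COX7A1, with a mean of 2.67, lay just above.

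The respiratory chain carries electrons from NADH through complex I and from succinate through complex II to ubiquinone, then through complex III and cytochrome c to complex IV, which reduces oxygen to water. Complexes I, III and IV pump protons across the inner mitochondrial membrane, and ATP synthase uses that gradient to make ATP. Complex II is encoded wholly in the nucleus, whereas the other complexes also hold subunits made from mitochondrial DNA. Many tumour cells take up glucose for glycolysis while keeping a working respiratory chain, and high glucose is known in yeast to repress respiratory genes.

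The 3 lines were A2058 overexpressing TET2WT, A2058 overexpressing TET2M, and Mock. TET2 converts 5-methylcytosine in DNA to its oxidised forms. The lines were kept for 7 days in DMEM, either the high-glucose form (4.5 g/L) or the normal one (1 g/L), and each concentration was measured on 1 Affymetrix array per line, 6 arrays in all. The sources used here do not state which vector drives the constructs, what the change in TET2M is, or whether a line is 1 clone, and the labels say no more of Mock than its name.

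TET2 itself read 9.54 and 9.68 in TET2WT, 7.57 and 7.37 in TET2M, and 3.81 and 4.13 in Mock at 4.5 and 1 g/L. Both overexpressing lines thus stood above Mock, as labelled. These values cannot show which of the 2 carries which construct, nor check the glucose labels. Of 9 melanoma markers, 8 had a probe set, and 4 had a mean over 6 on the log2 scale, SOX10 with 9.51 the highest, while MLANA and TYR lay below the filter and PMEL averaged 3.78. No marker of keratinocytes, fibroblasts, endothelial or blood cells had a mean over 6. The keratinocyte marker KRT14 moved with the line, with 4.55 and 3.89 in TET2WT, 6.22 and 5.91 in TET2M, and 6.86 and 6.38 in Mock at 4.5 and 1 g/L, and was lower in TET2WT than in Mock by the model's test (adjusted p = 0.000442). The fibroblast marker LUM also fell in TET2WT, by 1.06 on the log2 scale relative to Mock (adjusted p = 0.0137) and with adjusted p = 0.00719 relative to TET2M. Of the melanoma markers, MITF fell in TET2WT relative to Mock (-0.60, adjusted p = 0.0433), and CSPG4 fell relative to Mock (-0.77, adjusted p = 0.0422) and to TET2M (-0.84, adjusted p = 0.038). The lists did not move as a whole. Between TET2WT and Mock, SOX10 (0.115), S100B (0.24), PMEL (0.155) and S100A1 (0.18) differed the other way, and none of them passed. KRT5 (0.055), KRT1 (0.025) and COL1A1 (0.34) were also on the positive side and DCN (-0.195) on the negative, without passing. The part of these markers in the line comparisons was not tested. The array medians over all probe sets ran between 2.96 and 3.03. Because the deposited values share nearly the same distribution on every array, fewer cells with a transcript, less transcript per cell and a shift in total RNA cannot be told apart.

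The promoters of these genes are shown first, because the text returns to 3 of them: COX7B2, the single member that passed in the additive model, its common partner COX7B, and COX5B, one of the members lower at high glucose in every line. The 250 bases before the start of each, 5′ to 3′ on the gene's strand, are from RefSeq on GRCh38.p14. COX7B2 lies at chr4:46909246-46909495 on the minus strand and COX7B at chrX:77899218-77899467 on the plus strand, with CpG dinucleotides, the bases at which TET enzymes act when methylated, in capitals.
COX7B2: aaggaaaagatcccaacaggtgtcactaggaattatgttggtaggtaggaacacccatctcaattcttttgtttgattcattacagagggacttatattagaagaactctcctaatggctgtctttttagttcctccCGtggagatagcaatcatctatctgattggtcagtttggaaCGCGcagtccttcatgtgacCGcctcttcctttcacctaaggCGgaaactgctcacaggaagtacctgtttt
COX7B: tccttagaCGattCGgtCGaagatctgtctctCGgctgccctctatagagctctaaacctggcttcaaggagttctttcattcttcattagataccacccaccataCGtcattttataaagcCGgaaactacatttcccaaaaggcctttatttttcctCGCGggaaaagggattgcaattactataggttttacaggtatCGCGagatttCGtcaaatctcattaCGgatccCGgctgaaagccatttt
The COX7B2 stretch holds 5 CpG and the COX7B stretch 13. COX5B lies at chr2:97645812-97646061 on the plus strand, with the matches to the NRF1 and ETS motifs described next in capitals.
COX5B: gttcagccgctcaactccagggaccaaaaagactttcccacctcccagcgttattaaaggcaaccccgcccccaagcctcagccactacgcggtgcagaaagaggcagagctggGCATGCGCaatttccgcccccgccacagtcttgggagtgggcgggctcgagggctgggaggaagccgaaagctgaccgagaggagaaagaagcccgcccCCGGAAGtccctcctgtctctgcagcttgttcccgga

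NRF1 (nuclear respiratory factor 1), the ETS-family factor GABP and YY1 are the textbook activators of respiratory chain genes. A set of 3 short motifs was searched on both strands of RefSeq promoter windows of 300 bases, which reach 50 bases past the start. Windows were found for 52 of the 60 protein-coding members, 61 windows in all, out of 35116 windows of all genes. GCATGCGC, the core of the NRF1 motif, stood in the windows of 9 genes, COX5B, COX6A1, NDUFA5, NDUFA6, NDUFA8, NDUFB4, NDUFS6, NDUFS7 and SDHD. That was 14.8% of the members' windows, against 3.05% of all windows. CCGGAAG, one form of the ETS motif, stood in those of 13 genes (21.3% of windows, against 10.3% of all), COX4I1, COX5B, COX6A1, COX8A and SDHD among them. ATGGCGGC, the YY1 motif, stood in those of 10 genes (18.0% of windows, against 3.00% of all), among them NDUFA13, NDUFS1 and UQCRC1. The motifs do not overlap one another in the COX5B stretch, and none of the 3 was found in the COX7B2 or COX7B stretch. Only exact matches were searched, so shorter or variant forms of these motifs may be present. The members' windows had a median of 22 CpG, against 14 over all windows, and COX7B2 had 8. Each of the 3 motifs itself holds a CpG, and the windows were not matched on CpG. The part of CpG content in the motif shares was not tested. No factor binding or methylation was measured here.

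Across the 6 arrays the subunit transcripts varied little. The median range of a member over the arrays was 0.21 on the log2 scale, against 0.38 over all genes tested, and the median SD was 0.077, against 0.143. This was not particular to the members. The median range was also 0.21 over 75 mitochondrial ribosomal proteins (median SD 0.081) and 0.215 over 18 ATP synthase subunits (median SD 0.077). It was 0.285 over cytochrome c and coenzyme Q genes, 0.29 over assembly factors and 0.42 over regulators of mitochondrial genes. A range above 0.5 was seen in 2 of 62 members, COX7B2 (0.92) and NDUFV2-AS1 (0.51), against 29.2% of all genes. CYC1, the cytochrome c1 of complex III, and NDUFB9 of complex I had the smallest range, 0.07 each. By complex the median range was 0.20 in complex I, 0.23 in complex II, 0.16 in complex III and 0.21 among the common forms of complex IV. It was wider, 0.45, among the 5 restricted forms of complex IV and 0.48 among the 3 noncoding symbols, most of them dim. The members were not compared with genes of like brightness, so the part of signal level in these ranges was not tested.

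**Figure D1:**
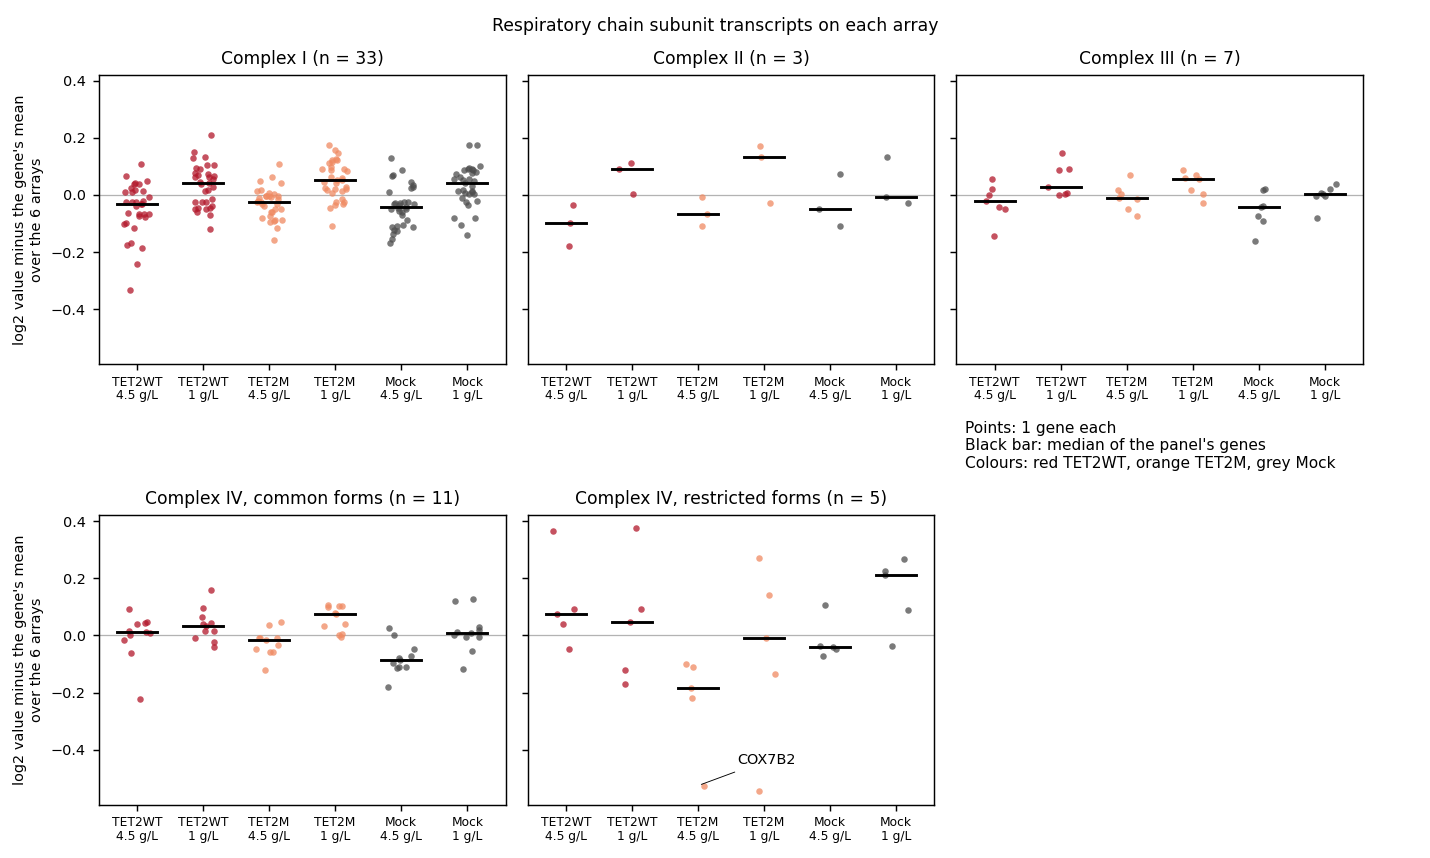
Deviation of each protein-coding subunit transcript (points, 59 genes) from its own mean over the 6 arrays, in log2 units on the vertical axis, by array on the horizontal axis and by complex in panels, with black bars at the median. The medians of complexes I, II and III lie lower on each 4.5 g/L array than on the same line's 1 g/L array, and the 2 lowest points are COX7B2 on the TET2M arrays.

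The first comparison asked whether these transcripts differ between high and normal glucose. No member passed limma's test over the 3 lines (adjusted p under 0.05), where 0.00693% of all genes did. The transcripts nevertheless lay slightly lower at 4.5 g/L as a group: 55 of 62 had a negative difference and 7 a positive one, with a median of -0.07, against -0.02 over all genes tested, of which 55.7% were negative. In all 3 lines 30 of the 62 (48.4%) were lower at high glucose and 1, NDUFB1, was higher, against 20.7% of all genes lower in all 3. With an intensity trend in limma's variance 3 members passed, SDHC, COX5B and NDUFA13, all lower at high glucose, where 3.97% of all genes passed. The largest difference, that of SDHC, was 0.833 times the level at normal glucose. At an unadjusted p under 0.05 there were 5 members, all lower at high glucose (SDHC, NDUFS7, COX5B, NDUFA3 and NDUFV2-AS1), which is 5 of 62 where 15.4% of all genes met that limit in either direction. The members' medians moved in the same direction by line, at -0.05 in TET2WT (44 lower), -0.08 in TET2M (49 lower) and -0.10 in Mock (51 lower), against 0, -0.02 and -0.03 over all genes. The array's ACTB probe sets, which compare signal near the 3′ and 5′ ends of that transcript, also moved with glucose. Their 3′ minus 5′ difference was 2.06, 1.93 and 2.02 at 4.5 g/L in TET2WT, TET2M and Mock, against 1.90, 1.65 and 1.94 at 1 g/L, and its part in the members' median was not tested. The same measure for GAPDH was 0.35, 0.28 and 0.29 at 4.5 g/L, against 0.25, 0.28 and 0.32 at 1 g/L, and did not move one way.

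**Figure D2:**
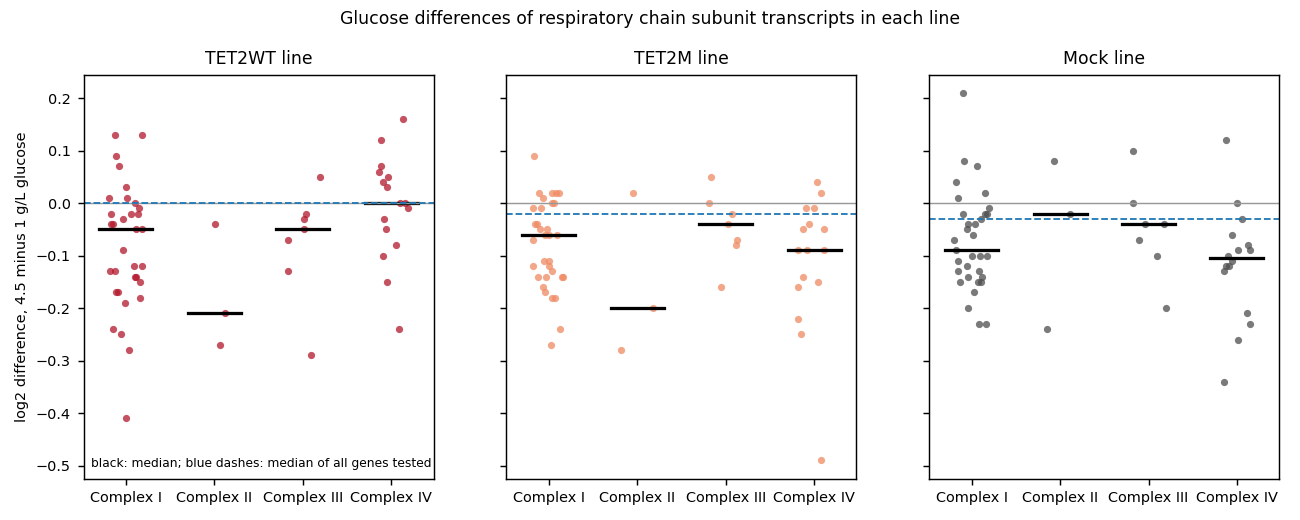
Difference of each protein-coding subunit transcript between 4.5 and 1 g/L glucose (vertical axis, log2 units) by complex (horizontal axis), in a panel for each line; points are genes, black bars medians and blue dashes the median of all genes tested. Medians lie below 0 in complexes I, II and III in each line, and in complex IV in TET2M and Mock but not in TET2WT, where it is 0.

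In complex I, which oxidises NADH, 29 of 33 transcripts had a negative glucose difference and 4 a positive one, with a median of -0.07 and none passing. All 5 measured core subunits, which carry the flavin, the iron-sulphur clusters or their scaffold, were on the negative side, with a median of -0.10. NDUFS7, which holds the last iron-sulphur cluster before ubiquinone, had 7.97, 8.06 and 8.13 at 4.5 g/L in TET2WT, TET2M and Mock, against 8.11, 8.33 and 8.33 at 1 g/L. It was lower at high glucose within each line, although the arrays of the 2 concentrations overlapped, and its difference was -0.20 ± 0.073 (limma SE here and below; adjusted p = 0.281). NDUFV1, the subunit that binds NADH and flavin, had 9.17, 9.28 and 9.15 at 4.5 g/L, against 9.42, 9.41 and 9.29 at 1 g/L, with no overlap and a difference of -0.17 (adjusted p = 0.336). The iron-sulphur subunits NDUFS1 and NDUFV2 differed by -0.01 and -0.05, and the core subunit NDUFS3 by -0.10, with adjusted p of 0.974, 0.787 and 0.563.

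Among the accessory subunits of complex I, which surround the core and steady it, NDUFA13 and NDUFB6 were both lower at 4.5 g/L by at least 0.14 in every line. NDUFA13, also known as the cell death gene GRIM-19, had 10.43, 10.47 and 10.44 at 4.5 g/L in TET2WT, TET2M and Mock, against 10.57, 10.65 and 10.61 at 1 g/L, so that the 2 concentrations did not overlap. The difference was -0.16 ± 0.070 (adjusted p = 0.34). NDUFB6 had 9.60, 9.62 and 9.65 at 4.5 g/L, against 9.77, 9.76 and 9.80 at 1 g/L (-0.15, adjusted p = 0.359). NDUFA3, another accessory subunit, had 9.03, 8.94 and 8.90 at 4.5 g/L, against 9.15, 9.18 and 9.13 at 1 g/L, again without overlap (-0.20 ± 0.073, adjusted p = 0.291). NDUFB1 alone was higher at high glucose in all 3 lines, by 0.01 to 0.02, with 10.44, 10.51 and 10.28 at 4.5 g/L, against 10.43, 10.49 and 10.26 at 1 g/L. Its difference of 0.02 ± 0.070 is well within the error (adjusted p = 0.932). NDUFA10 went opposite ways by line, with 6.29 at 4.5 g/L and 6.70 at 1 g/L in TET2WT, and with 6.75 at 4.5 g/L and 6.54 at 1 g/L in Mock.

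Complex II links the citric acid cycle to the chain by oxidising succinate. SDHC, one of its membrane anchors, had the largest glucose difference of all members. Its values were 9.66, 9.73 and 9.73 at 4.5 g/L in TET2WT, TET2M and Mock, against 9.93, 10.01 and 9.97 at 1 g/L. The 2 concentrations did not overlap, and the difference was -0.26 ± 0.070 (adjusted p = 0.203). SDHC has 7 probe sets above the filter: the 4 brightest, with means of at least 7.82, differed by -0.26, -0.21, -0.10 and -0.15, and the 3 dimmer ones, with means of at most 5.18, by 0.19, 0.08 and 0.20. All 4 bright ones have the s or x ending of probe sets that may also match related transcripts. The direction of SDHC therefore held for its bright probe sets and not for its dim ones. SDHA, the flavoprotein that binds succinate, had 8.09, 8.12 and 8.14 at 4.5 g/L, against 8.30, 8.32 and 8.16 at 1 g/L (-0.14, adjusted p = 0.43). The other anchor, SDHD, had 8.97, 9.00 and 9.08, against 9.01, 8.98 and 9.00, a difference of 0.02 (adjusted p = 0.92).

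Complex III passes electrons from ubiquinol to cytochrome c. Its transcripts had a median glucose difference of -0.06, 6 of 7 negative, and none passed. UQCRC1, one of its core proteins, had 9.32, 9.38 and 9.20 at 4.5 g/L in TET2WT, TET2M and Mock, against 9.45, 9.42 and 9.40 at 1 g/L. The concentrations did not overlap, and the difference was -0.12 ± 0.075 (adjusted p = 0.473). UQCRQ, a small subunit of complex III, differed by -0.13 (adjusted p = 0.483), with the widest gap in TET2WT, 9.57 at 4.5 g/L against 9.86 at 1 g/L. CYC1 was flat, between 10.05 and 10.12 on the 6 arrays.

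Complex IV is cytochrome c oxidase. Of its 16 tested transcripts, 15 had a negative glucose difference, with a median of -0.07, and none passed. COX5B, a subunit found in every tissue, had 10.12, 9.99 and 9.93 at 4.5 g/L in TET2WT, TET2M and Mock, against 10.27, 10.21 and 10.14 at 1 g/L. The 2 concentrations just failed to overlap, and the difference was -0.19 ± 0.071 (adjusted p = 0.287). The other 3 probe sets of COX5B differed by -0.24, -0.10 and, for a dim one, 0.00. COX4I1, the largest nuclear-encoded subunit of complex IV, had 11.71, 11.68 and 11.63 at 4.5 g/L, against 11.79, 11.83 and 11.72 at 1 g/L (-0.11, adjusted p = 0.508). COX6C was the one complex IV transcript with a positive difference, 0.06 (adjusted p = 0.75).

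How many complex IV transcripts were lower at high glucose varied with the line. In TET2WT 7 of 16 were lower, 7 higher and 2 equal, in TET2M 14 of 16 were lower, and in Mock 14 of 16 were lower. Over all genes 48.3%, 53.3% and 54.5% were lower in TET2WT, TET2M and Mock. The split in TET2WT was 6 lower, 4 higher and 1 equal among the 11 common forms, and 1 lower, 3 higher and 1 equal among the 5 restricted forms. The glucose difference in TET2WT minus the mean of the other lines' was positive for 14 of the 16, where 53.0% of all genes were positive. The 16 had a median of 0.05, against 0.02 over all genes. That median was 0.04 for the common forms and 0.23 for the restricted forms, 4 of which lie near the background. No member passed the test of this TET2WT-specific response, and no gene of the 14428 did (0%). With arrays centred on their median 529 of the 14428 genes passed it, and again no member. At an unadjusted p under 0.05 there was also no member, where 9.18% of all genes met that limit. That model left 1 residual degree of freedom. The largest values were those of COX7A1 (0.50, adjusted p = 0.531), which lies near the filter, and NDUFA10 (-0.46, adjusted p = 0.551).

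The second set of comparisons asked how the lines differ. Between TET2WT and Mock no member passed (0 of 62, where 4.21% of all genes did), nor was there one at an unadjusted p under 0.05, which 20.2% of all genes met. The members' median was 0.04, against -0.01 over all genes, with 35 positive and 27 negative. By complex the medians were -0.03 in complex I, -0.05 in complex II, 0.06 in complex III and 0.06 in complex IV. At 4.5 g/L 14 of 16 complex IV transcripts were higher in TET2WT than in Mock, with a median of 0.11, and at 1 g/L 9 of 16, with a median of 0.03. Over all genes 49.95% were higher at 4.5 g/L (median 0) and 42.5% at 1 g/L (median -0.03). The complex IV counts by line for glucose rest on the same TET2WT and Mock arrays, so they are not separate observations. Of the 11 common forms, 10 were higher at 4.5 g/L and 7 at 1 g/L. NDUFB1 had 10.44 and 10.43 in TET2WT at 4.5 and 1 g/L, against 10.28 and 10.26 in Mock (0.17 ± 0.085, adjusted p = 0.35). NDUFS7 had 7.97 and 8.11 in TET2WT, against 8.13 and 8.33 in Mock (-0.19 ± 0.089, adjusted p = 0.305). Both kept their side at the 2 concentrations, with differences near 2 standard errors.

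Smaller differences made up the rest of this comparison. COX7A2, the common form of subunit 7A, had 10.54 and 10.78 in TET2WT at 4.5 and 1 g/L, against 10.79 and 10.89 in Mock (-0.18, adjusted p = 0.394). In complex III, UQCRB was 0.08 higher (adjusted p = 0.686) and CYC1 0.05 lower (difference -0.05, adjusted p = 0.819). In complex II, SDHC differed by -0.06, SDHD by -0.05 and SDHA by 0.05, each with an adjusted p above 0.7.

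Between TET2M and Mock no member passed either (0 of 62, where 0.097% of all genes passed). The members' median was 0.02, against -0.02 over all genes. At an unadjusted p under 0.05 there were 3 members, NDUFB1 and NDUFV1-DT higher in TET2M and COX7B2 lower, where 9.51% of all genes met that limit. NDUFB1 had 10.51 and 10.49 in TET2M at 4.5 and 1 g/L, against 10.28 and 10.26 in Mock (0.23 ± 0.085, adjusted p = 0.478), a gap of 0.23 at both concentrations. NDUFS4, an accessory subunit whose loss causes Leigh syndrome, had 8.95 and 9.07 in TET2M, against 9.13 and 9.28 in Mock (-0.20 ± 0.086, adjusted p = 0.554). COX7C, a small subunit of complex IV, had 11.92 and 11.96 in TET2M, against 11.80 and 11.83 in Mock (0.13, adjusted p = 0.688). In complexes II and III, SDHD (-0.05), UQCR11 (0.07) and CYC1 (-0.02) had the same sign at both glucose concentrations, all within their errors.

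TET2WT and TET2M differed in 1 member: COX7B2 passed, 1 of 62, where 3.3% of all genes did. It was also the only member at an unadjusted p under 0.05, which 17.6% of all genes met. The other transcripts were close, with a median over all members of -0.02, against 0 over all genes, and 23 positive and 37 negative differences. Next in size were NDUFA10 (-0.23, adjusted p = 0.509) and COX6A2 (0.22, adjusted p = 0.403). COX6A2 is a muscle form of subunit 6A and lay near background. NDUFC1 had 10.75 and 10.79 in TET2WT at 4.5 and 1 g/L, against 10.61 and 10.67 in TET2M (0.13 ± 0.085, adjusted p = 0.506), and NDUFA12 10.38 and 10.40, against 10.51 and 10.50 (-0.12, adjusted p = 0.572). In the other complexes UQCRB differed by 0.10, UQCRC2 by -0.06, SDHC by -0.08 and COX6B1 by -0.05, with adjusted p of 0.639, 0.813, 0.724 and 0.846.

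**Figure D3:**
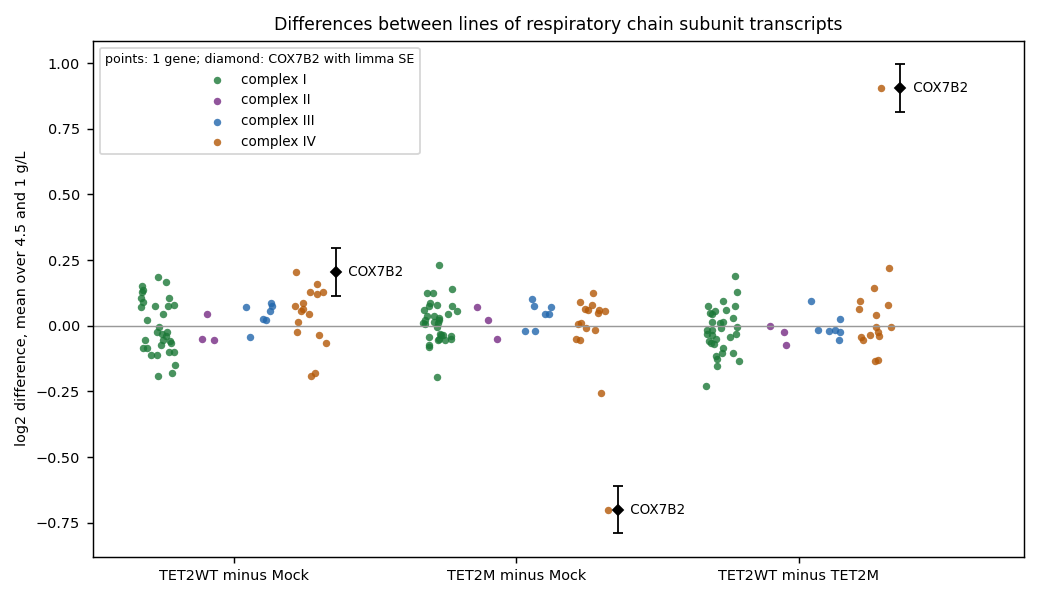
Difference between lines of each protein-coding subunit transcript (points, coloured by complex; vertical axis, log2 units, mean over 4.5 and 1 g/L) in the 3 comparisons on the horizontal axis; diamonds repeat COX7B2 with its limma SE. All points but COX7B2 lie within 0.3 of 0, and COX7B2 lies at 0.91 for TET2WT minus TET2M and at -0.70 for TET2M minus Mock.

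COX7B2 encodes an alternative form of subunit 7B of complex IV, known mainly from testis. Its 1 probe set had 7.81 and 7.82 in TET2WT at 4.5 and 1 g/L, 6.92 and 6.90 in TET2M, and 7.55 and 7.67 in Mock. Both TET2M arrays lay below all 4 others. TET2WT was 1.87-fold higher than TET2M, a log2 difference of 0.91 ± 0.091 (limma, adjusted p = 0.00784), which ranked 109 of 14428 genes by p. Set against Mock, TET2M was 1.62-fold lower (-0.70 ± 0.091, adjusted p = 0.102) and ranked 33, and it passed with the intensity trend (adjusted p = 0.00125), where 1.03% of all genes did. In the third comparison TET2WT differed from Mock by 0.21 ± 0.091 (adjusted p = 0.279). The last 2 comparisons share the Mock arrays. With any array or the Mock line left out, which leaves 1 residual degree of freedom and 0 of 14428 genes that pass, the difference between TET2WT and TET2M stayed between 0.86 and 0.95 and its adjusted p lay between 0.121 and 0.368. Its glucose differences were -0.01 in TET2WT, 0.02 in TET2M and -0.12 in Mock.

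The common partner, COX7B, had 11.40 and 11.45 in TET2WT at 4.5 and 1 g/L, 11.34 and 11.35 in TET2M, and 11.24 and 11.35 in Mock. It passed in no comparison, and its difference between TET2WT and TET2M was 0.08 (adjusted p = 0.709). COX7B2 lies on chromosome 4. Of the 8 nearest genes tested, 4 on each side (SLC30A9, BEND4, GUF1, GNPDA2, COMMD8, ATP10D, CORIN and NFXL1), none passed in any comparison between lines. BEND4, 3 genes away, differed by -0.54 between TET2M and Mock (adjusted p = 0.307). ATP10D, 2 genes away, differed by 0.51 between TET2WT and TET2M (adjusted p = 0.481) and by -0.28 between TET2M and Mock (adjusted p = 0.826).

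The remaining tissue-restricted forms of complex IV were near background. COX4I2, the form of subunit 4 known from lung, lay between 3.13 and 3.32. COX6A2, a heart and muscle form, lay between 2.76 and 3.21, COX6B2, a testis form, between 2.99 and 3.25, and COX7A1, a heart and muscle form, between 2.45 and 2.94. The testis form COX8C lay between 1.86 and 2.09 and was not tested. None of these passed. The common partners COX4I1, COX6A1, COX6B1, COX7A2, COX7A2L and COX8A had largest differences over the 3 line comparisons of 0.08, -0.04, 0.06, -0.18, 0.06 and 0.09, and none passed.

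COXFA4 and COXFA4L2, once named NDUFA4 and NDUFA4L2 and since assigned to complex IV, fell outside the symbol rule. COXFA4 lay between 10.32 and 10.60 on all arrays, and COXFA4L2, a form known to rise in hypoxia, between 2.53 and 2.81. The third paralog, COXFA4L3, chosen after its values were seen, had 2.77 and 2.64 in TET2WT at 4.5 and 1 g/L, 3.17 and 3.67 in TET2M, and 4.25 and 5.52 in Mock. It fell by 2.18 ± 0.30 on the log2 scale in TET2WT relative to Mock (limma, adjusted p = 0.0185), and its difference between TET2M and Mock was -1.47 (adjusted p = 0.306). It lay highest in Mock at 1 g/L, and near background in TET2WT.

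**Figure D4:**
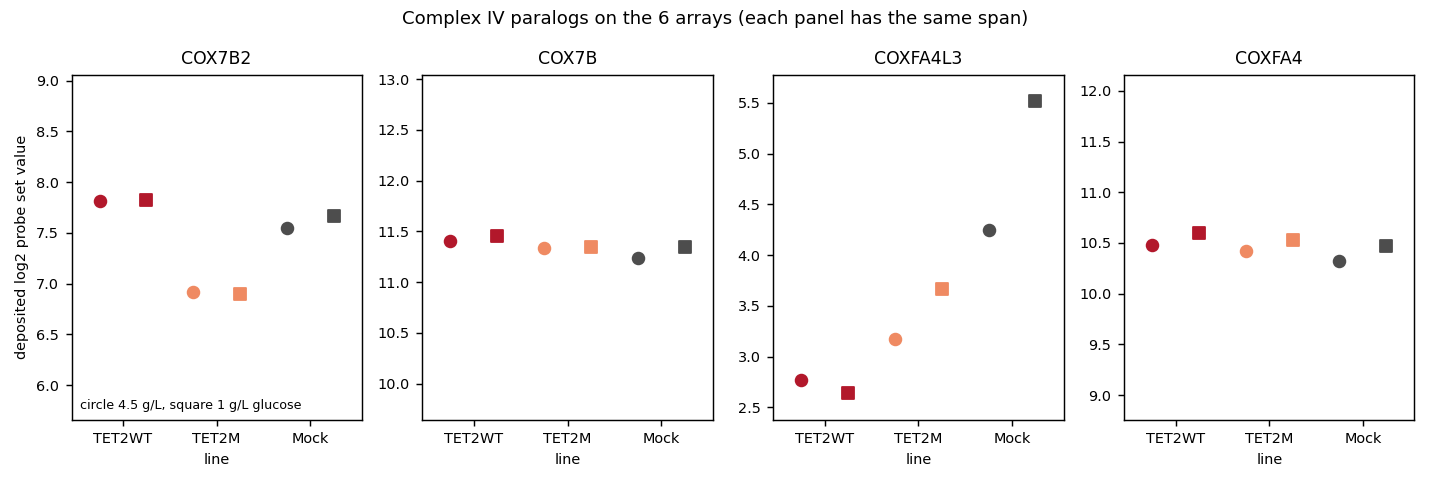
Deposited log2 probe set values (vertical axes, each with the same span) of COX7B2, COX7B, COXFA4L3 and COXFA4 on the 6 arrays, by line on the horizontal axis; circles are 4.5 g/L and squares 1 g/L glucose. COX7B2 is lowest in TET2M, COXFA4L3 is lowest in TET2WT, and COX7B and COXFA4 are nearly flat.

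The 3 transcripts beside subunit genes that passed the filter had negative glucose differences, and none passed the test. NDUFV2-AS1 had 3.33, 3.19 and 2.99 at 4.5 g/L in TET2WT, TET2M and Mock, against 3.36, 3.50 and 3.40 at 1 g/L (-0.25 ± 0.096, adjusted p = 0.304). NDUFV1-DT and NDUFB2-AS1 differed by -0.16 each. NDUFV1-DT had 4.55 and 4.66 in TET2M at 4.5 and 1 g/L, against 4.18 and 4.48 in Mock (0.28 ± 0.10, adjusted p = 0.472). All 3 lay between 2.99 and 4.66.

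Several probe sets were above the filter for 25 members, and for glucose all of them had the same sign in 13 of the 25. The 41 probe sets not chosen had a median glucose difference of -0.04, with 26 negative and 15 positive. Between TET2WT and TET2M they had a median of -0.01 (21 negative, 19 positive).

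Other genes of the same organelle gave a frame for these values. The 18 ATP synthase subunits had a median glucose difference of -0.08, with 13 negative, and none passed in any comparison. Ribosomal proteins of the mitochondrion, which make the chain's mitochondrially encoded subunits, had a median of 0.00 over 75 genes for glucose, with 36 negative. Between TET2WT and Mock 3 of the 75 passed, where 4.21% of all genes did. In TET2WT 2 of them fell, MRPS31 (-0.66, adjusted p = 0.0229) and MRPS30 (-0.61, adjusted p = 0.0436), and MRPS6 rose (0.53, adjusted p = 0.0422). MRPS31 lies on chromosome 13, MRPS30 on 5 and MRPS6 on 21, and the part of position was not tested. MRPS30 and MRPS31 were also lower in TET2WT than in TET2M (adjusted p = 0.0497 and 0.0395), which made 2 of 75 where 3.3% of all genes passed.

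Assembly factors insert cofactors or join subunits without staying in the complex. Of 48 tested, 2 passed as higher in TET2WT than in TET2M, where 3.3% of all genes passed, and none passed elsewhere. Relative to Mock, COX20 differed by 0.475 in TET2WT and -0.065 in TET2M, and PET117 by 0.09 in TET2WT and -0.415 in TET2M. COX20, which helps to mature a mitochondrially encoded subunit of complex IV, had 8.90 and 8.63 in TET2WT at 4.5 and 1 g/L, against 8.26 and 8.19 in TET2M (0.54 ± 0.096, adjusted p = 0.0452). PET117, a complex IV assembly factor, had 7.71 and 7.56 in TET2WT, against 7.17 and 7.09 in TET2M (0.51 ± 0.087, adjusted p = 0.0414), and Mock was at 7.58 and 7.51. In both genes the TET2WT arrays lay above both TET2M arrays. The other probe sets of COX20 differed by 0.31 and 0.02 in that comparison, and the other, dim probe set of PET117 by 0.15. PET117 lies on chromosome 20 and COX20 on chromosome 1. Other chromosome 20 genes of these lists differed between TET2M and Mock by -0.33 (NDUFAF5), -0.345 (MRPS26) and -0.145 (ATP5F1E), without passing. COX4I2, a dim member on chromosome 20, differed by -0.015. The part of chromosome position was not tested. None of the calls named here for COXFA4L3, the ribosomal proteins and these assembly factors held with any 1 array left out. Those settings leave 1 residual degree of freedom and few or no genes that pass, so they cannot decide whether a call holds. The differences kept their sign. Between TET2WT and TET2M, COX20 ran from 0.45 to 0.63 and PET117 from 0.47 to 0.54. Between TET2WT and Mock, COXFA4L3 ran from -2.72 to -1.64, MRPS31 from -0.75 to -0.56, MRPS30 from -0.75 to -0.47 and MRPS6 from 0.46 to 0.59. The assembly factors' glucose median was -0.01. The 14 genes of cytochrome c and coenzyme Q had none that passed, with a glucose median of -0.01.

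The 11 regulators tested, transcription factors and coactivators of mitochondrial genes, had a median glucose difference of 0.04, 7 of them positive, and none passed. NRF1 had 5.06, 5.39 and 5.51 at 4.5 g/L in TET2WT, TET2M and Mock, against 4.49, 4.63 and 4.93 at 1 g/L, without overlap. That difference, 0.64, came from 1 of its 4 probe sets, and the others gave 0.20, -0.32 and 0.08. TFAM, which packages mitochondrial DNA and takes part in its transcription, had 7.96, 7.95 and 8.22 at 4.5 g/L, against 7.55, 7.75 and 7.87 at 1 g/L. That was a difference of 0.32, and the other probe sets of TFAM gave 0.30, 0.04 and, for a dim one, 0.28.

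**Figure D5:**
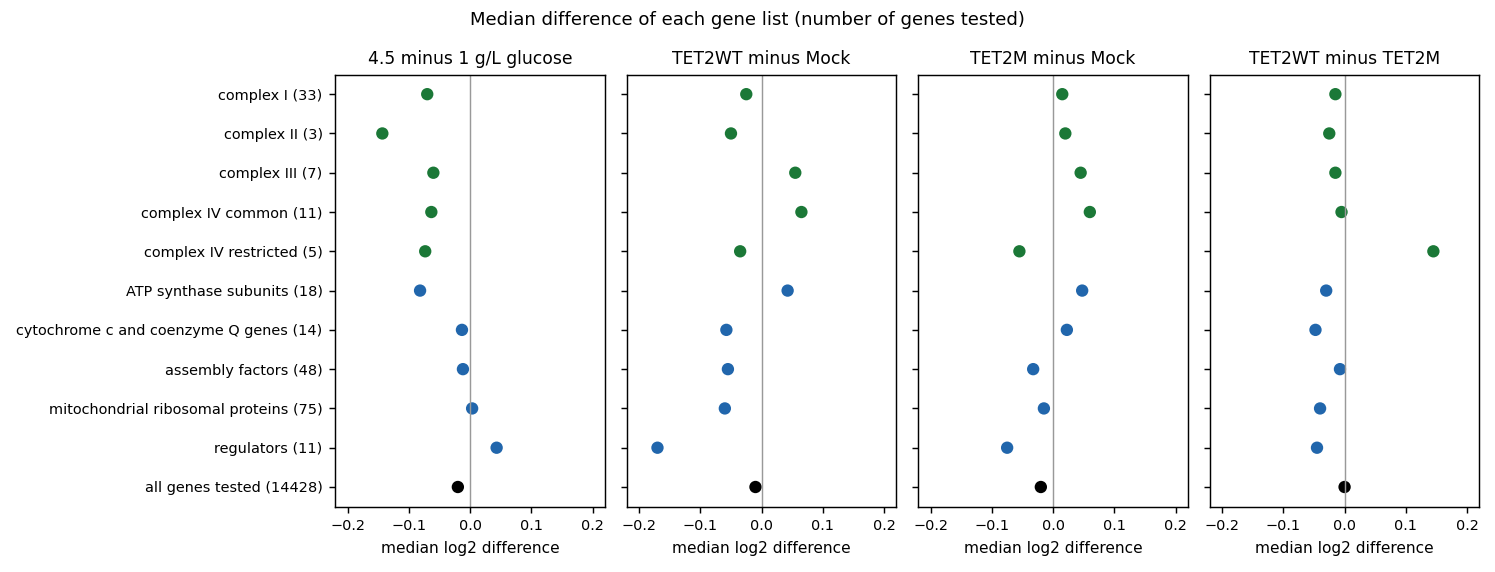
Median log2 difference (horizontal axes) of the subunits of each complex (green), of other mitochondrial gene lists (blue) and of all genes tested (black), with the number of genes beside each name, in the 4 comparisons. For glucose the subunit lists and ATP synthase lie left of all genes at -0.02, and the ribosomal proteins and regulators lie right of it.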

How the data were processed

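Total RNA of 6 cultures was hybridised to 1 Affymetrix array each. Per the submitters' processing notes, Affymetrix Expression Console gave the log2 probe set values that the authors deposited. No source used here states its version, how probes were summarised or how background was corrected. That the scale is log2 was inferred from values between 1.56 and 13.78, and sorted columns differed by at most 0.12.

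Probe sets annotated to 1 gene (41097 of 54675) with a mean at or above the 40th percentile were kept, and the brightest represented its gene. A model with terms for line and glucose was fitted to 14428 genes in R 4.3.3 with limma 3.58.1 (lmFit, eBayes), with 2 residual degrees of freedom. The TET2WT-specific response came from a model with 1 more term. Tests were two-sided with Benjamini-Hochberg adjustment over all genes and a threshold of 0.05. The code was tested on simulated data. The number of arrays limits the precision. With 1 array per combination, errors measure departures from additivity, and the labels name no separate cultures.

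Members, lists and tests were chosen with earlier results of these data known. Text names members that passed, the member of each complex and direction whose smallest difference over the separate pairs was largest, SDH genes, core subunits, alternative forms and partners; others, such as NDUFA3, NDUFA10 and UQCRQ, were chosen after their values were seen. Lists are described by counts and medians.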

Additional observations from a re-analysis of the deposited data

How the results depend on the processing

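Alternatives were other normalizations, an intensity trend in limma's variance, other filters, other probe sets per gene, no second factor, and each array or line left out. No member passed between TET2WT and Mock under the alternatives that kept every array. Over all genes the fewest passed under these without the second factor (318 of 14428) and the most with the intensity trend (1528 of 14428). No member passed with an array or the TET2M line left out either. Those settings leave 1 residual degree of freedom, so they cannot decide whether a member differs. With the intensity trend 3 members passed for glucose, SDHC, COX5B and NDUFA13, all lower at high glucose, and 1 for TET2M against Mock, COX7B2 (adjusted p = 0.00125). Between TET2WT and TET2M 0 passed with any one array left out and 0 without the Mock line, settings that leave 1 residual degree of freedom and under which 0 of 14428 genes passed in that comparison. The members' glucose median stayed between -0.09 and -0.05 with an array left out. For TET2WT against Mock the median was 0.0676 with cyclic loess, -0.0275 with probe sets that have no s or x ending, and 0.0025 to 0.0563 with an array left out. For TET2M against Mock it was 0.0502 with quantile normalization, 0.0428 with cyclic loess, 0.0625 with arrays centred on their median, 0.03 with the stricter filter at the 60th percentile, -0.0038 with the mean of a gene's probe sets, -0.0075 without s or x endings, and 0.0125 to 0.0337 with an array left out. For TET2WT against TET2M it ran between -0.0225 and 0.015 with an array left out, so these medians lie close to 0. Relative to the median of all genes under the same setting, the members' median was 0.0162 to 0.055 for TET2M against Mock, -0.0075 to 0.075 for TET2WT against Mock and -0.0225 to 0.005 for TET2WT against TET2M. Single genes changed sign too. Without s or x endings SDHC was 0.19 for glucose and 0.01 for TET2WT against TET2M, NDUFB1 was -0.03 for TET2WT against Mock, and UQCR11 was -0.17 for TET2M against Mock, and -0.05 with the mean of probe sets. CYC1 for TET2M against Mock was 0.0129, 0.0024 and 0.0225 with quantile, cyclic loess and centred values, under which the all-gene median was 0.0083, 0.0033 and 0.0225 in place of -0.02. COX7B2 for glucose was 0.005 without the Mock line and ran between -0.065 and 0.005 with an array left out. The cause was not tested, apart from the other probe sets' own values given above. The line term already sets the 2 glucose arrays of a line against each other. No paired analysis was possible because the labels carry no replicate numbers for a further block.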

Other observations

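Subunit genes whose probe sets name several genes are given here by probe set only. The probe set of UQCRH and UQCRHL lay between 12.12 and 12.16 on all 6 arrays. That of NDUFS5 and RPL10 lay between 10.97 and 11.04, and the brighter one of NDUFC2 and NDUFC2-KCTD14 between 10.16 and 10.39. The 3 probe sets of NDUFS8, a core subunit of complex I that shares its annotation with MIR7113 and MIR4691, differed between 4.5 and 1 g/L glucose by -0.15, -0.14 and, for the dimmest, 0.06. A probe set of SDHA and its pseudogenes SDHAP1, SDHAP2 and SDHAP4 had 5.02, 5.03 and 5.21 at 4.5 g/L in TET2WT, TET2M and Mock, against 4.65, 4.57 and 4.74 at 1 g/L, a difference of 0.43 that runs opposite to that of the SDHA probe set.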
